A study of Bos taurus with 15 samples.

Results

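Connexins join neighbouring cells through gap junctions and desmosomes hold them together, and 10 genes for these junctions were measured cell by cell along the digestive tract of cattle. The connexin genes were *GJB2* (connexin 26), *GJB6* (connexin 30) and *GJA1* (connexin 43). The desmosomal genes were *DSG1*, *DSG2* and *DSG3* (desmogleins), *DSC2* and *DSC3* (desmocollins), *DSP* (desmoplakin) and *PKP1* (plakophilin 1). They were chosen by symbol out of 27270 genes in the deposited tables, and each symbol matched 1 gene. The data were 10x Genomics single-cell RNA libraries from Holstein dairy cattle. The 11 newborn (NB) libraries covered the stomach (reticulum, omasum and abomasum), the small intestine (duodenum, jejunum and ileum), the large intestine (cecum, colon and rectum), the salivary gland and the liver. The 4 adult (AD) libraries were from duodenum, jejunum, cecum and colon. There was 1 library per tissue and stage, so no difference between 2 libraries below has a replicate check or a test. All AD libraries came from 1 lactating cow and the NB libraries from calves of similar weight, and the calf behind each NB library was not given in the sources used here. AD tissue went directly into enzyme kits, a lamina propria kit for duodenum and cecum and a multi tissue kit for jejunum and colon. NB gut tissue was first incubated in EDTA and trypsin. The enzymes that followed were the same mix for NB reticulum, omasum and abomasum and a lamina propria kit for NB intestine. NB liver and salivary gland had other enzymes. Stage, animal and dissociation therefore cannot be told apart. Among NB libraries tissue and dissociation cannot be either, except that the abomasum shared the treatment of the forestomach libraries.

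A gap junction channel is built of connexins from both of the cells it joins and lets ions and small molecules pass between their cytoplasms. In a desmosome, desmogleins and desmocollins of adjacent cells bind each other outside the cell. Inside, plakoglobin (*JUP*) and the plakophilins tie them to desmoplakin, which anchors keratin filaments. In stratified squamous epithelium such as skin, *DSG3* and *DSC3* are known for the lower layers and *DSG1* and *DSC1* for the upper layers, whereas *DSG2* and *DSC2* are known as the pair of simple epithelia. The reticulum and omasum, parts of the forestomach, carry a stratified squamous epithelium. The abomasum and intestine carry a simple one. In the RefSeq gene order of a later assembly (ARS-UCD2.0, used here for names and order alone), *DSG2*, *DSG3*, *DSG4*, *DSG1*, *DSC1*, *DSC2* and *DSC3* follow each other without another protein-coding gene between them.

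Levels were compared among epithelial barcodes, taken as barcodes with at least 1 UMI (unique molecular identifier, a counted transcript) of *EPCAM*, an adhesion protein of epithelial cells, or *KRT14*, a keratin of basal stratified cells. UMIs were summed over the barcodes of a library and given as CPM, the count scaled to 1000000 UMIs of the group, with exact Poisson 95% intervals, which cover counting error only. Filters left 119798 of 172405 barcodes, with a median of 3542 to 8848 UMIs per barcode in the 15 libraries. Of 127585 distinct barcode sequences, 2078 occurred in more than 1 library, 28 of them in both reticulum and omasum. The epithelial barcodes numbered 6464 in NB reticulum and 9495 in NB omasum, 72 to 4900 in the other 9 NB libraries and 185 to 636 in the AD libraries.

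The keratins matched the labels of the forestomach libraries. *KRT14* measured 4141 CPM in NB reticulum and 5476 CPM in NB omasum and at most 1.96 CPM elsewhere, and *KRT5*, the partner of *KRT14*, measured 6288 and 7542 CPM. Outside the forestomach, many epithelial barcodes also held RNA of other cells. *PTPRC*, a leukocyte gene, was seen in 0.0737% of the epithelial barcodes of NB omasum, 1.33% in NB abomasum, 29.7% in NB cecum, 44.2% in AD jejunum and 81.1% in AD duodenum. In AD duodenum the other epithelial markers were close to absent (*KRT18* 1.96 CPM, *CDH1* 9.81 CPM) and the T cell gene *CD3E* reached 1105 CPM, so its barcodes went against the name epithelial. In NB salivary gland, of the salivary list *AQP5* alone was in the files, with 36.4 CPM. Values were also taken from the barcodes with no UMI of *PTPRC*, *COL1A2* (fibroblasts) or *PECAM1* (endothelium), called the strict gate below, although a barcode without these UMIs can still hold RNA of other cells.

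For 7 of the 10 genes, both forestomach libraries lay 2-fold or more above all others. *GJB2*, *GJB6*, *DSG1*, *DSG3*, *DSC3*, *DSP* and *PKP1* were each at least 2-fold higher in both NB reticulum and NB omasum than in every one of the other 13 libraries, as were 2.9% of 17693 genes. No member was 2-fold lower in both than in every other library, against 6.47% of genes. These shares of genes can include genes without a UMI on both sides of the comparison. An example is a gene absent from both forestomach libraries and from another library. The members and the further genes below were chosen with earlier results of these data known. The shares beside their counts therefore describe them and do not test them. The remaining genes were *GJA1* and *DSC2*, where the highest other library came within 2-fold, and *DSG2*, where forestomach and other libraries overlapped.

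**Figure D1:**
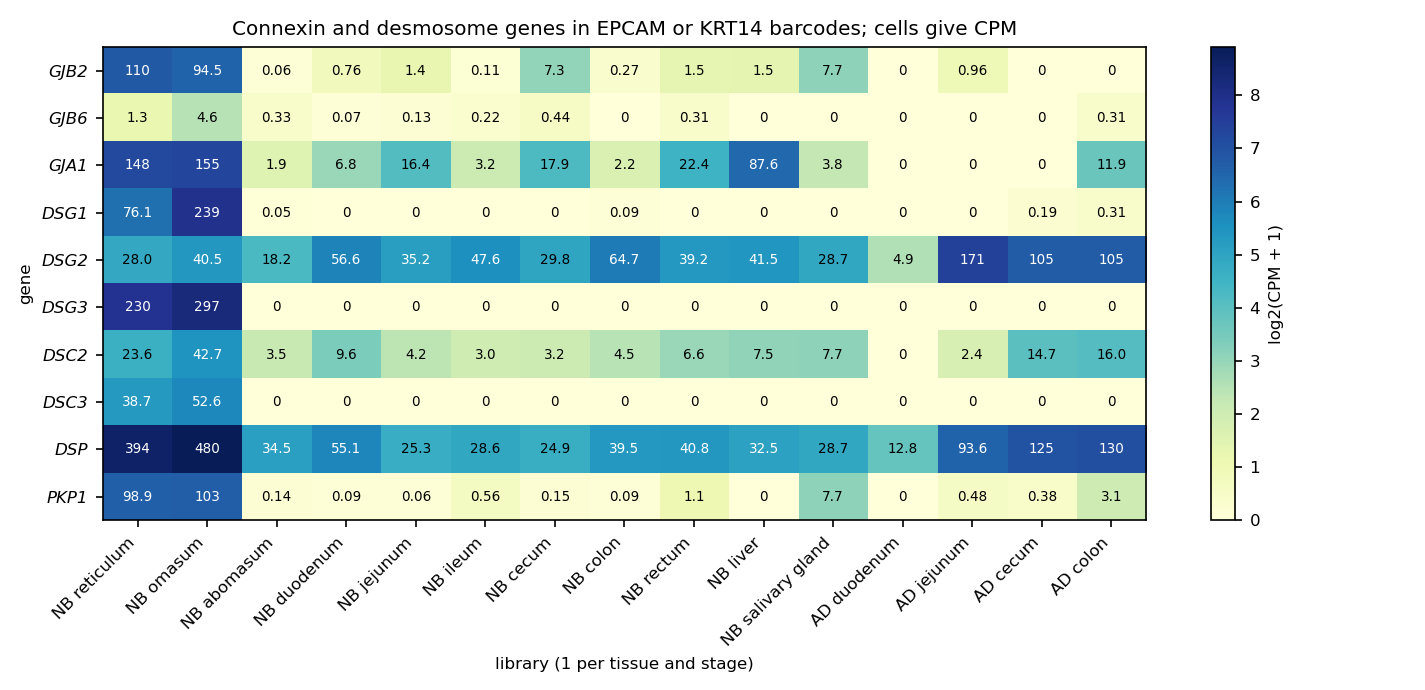
Level of the 10 genes in the epithelial barcodes of each of 15 libraries, as CPM in the cells and as log2(CPM + 1) in the colours. *DSG3* and *DSC3* are at 0 in every library but NB reticulum and NB omasum, while *DSG2* is seen in all 15.

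*DSG3* and *DSC3* gave the sharpest split. *DSG3* measured 230.3 CPM (interval 227 to 234) in NB reticulum and 297 CPM (293 to 300.5) in NB omasum. *DSC3* measured 38.7 CPM and 52.6 CPM. Neither gene had a UMI in the epithelial barcodes of the other 13 libraries, where the interval of the pooled count ended at 0.0210 CPM. *DSG1* followed them, with 76.1 CPM in NB reticulum, 239 CPM in NB omasum and 6 UMIs in the other 13 libraries together.

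*DSG2*, the desmoglein of simple epithelia, was the one desmoglein measured along the whole tract. It measured 28.0 CPM in NB reticulum and 40.5 CPM in NB omasum, and 18.2 (abomasum) to 64.7 CPM (colon) in the other NB libraries, with a median of 39.2. In AD tissue it measured 4.91 CPM in duodenum, 171 in jejunum, 105 in cecum and 105 in colon. The AD jejunum value (interval 154 to 190.0) was the highest of the 15 libraries. The order changed without the barcodes holding 2 or more tuft markers, described further on: there AD jejunum measured 83.0 CPM, below AD cecum (99.8) and AD colon (95.1), with overlapping intervals. Over all epithelial barcodes, AD colon and AD cecum followed and did not differ from each other beyond their intervals, and neither did the neighbours in the order from NB ileum (47.6) down to NB reticulum. *DSC2*, its desmocollin partner, measured 23.6 CPM in NB reticulum and 42.7 CPM in NB omasum, against 3.01 to 9.59 CPM in the other NB libraries and 0 to 16.0 CPM in AD libraries. In the strict gate AD cecum and AD colon held 22.4 and 26.8 CPM of *DSC2*, beside 23.9 CPM in NB reticulum, so there the libraries overlapped.

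Among the plaque genes, *DSP*, which links the plaque to keratin, was highest in the forestomach. It measured 394 CPM (389 to 399) in NB reticulum and 479.9 CPM (475 to 484) in NB omasum. The other NB libraries ranged from 24.9 to 55.1 CPM with a median of 32.5, and the AD libraries from 12.8 (duodenum) to 130.4 CPM (colon). In the strict gate AD colon reached 218 CPM, within 2-fold of the 399 CPM of NB reticulum, which leaves 6 of the 10 members at least 2-fold higher in both forestomach libraries than in every other, against 3.58% of genes in that gate. None was 2-fold lower, against 4.83%. The shares in that gate, too, can include genes without a UMI on both sides of the comparison. *PKP1* was close to equal in both forestomach libraries, 98.9 and 103 CPM. In the other 13 libraries it was at most 7.66 CPM, a value that rested on 4 UMIs in NB salivary gland and was 12.4 CPM (2 UMIs) in the strict gate. No level was divided by transcript length, so these values rank libraries within a gene and not genes against each other.

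Of the connexins, *GJB2* measured 110.0 CPM (108 to 113) in NB reticulum and 94.5 CPM (92.5 to 96.5) in NB omasum, and these intervals did not overlap. The next libraries were NB salivary gland at 7.66 CPM (4 UMIs) and NB cecum at 7.33 CPM (50 UMIs). The salivary gland value in the strict gate was 12.4 CPM (2 UMIs) and the NB cecum value 1.56 CPM. *GJB6* measured 1.30 CPM (86 UMIs) in NB reticulum, 4.59 CPM (414 UMIs) in NB omasum and at most 0.440 CPM elsewhere. That highest value, in NB cecum, rested on 3 UMIs, and its interval (0.0907 to 1.29) overlapped that of NB reticulum (1.04 to 1.60).

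*GJA1* was also measured in liver and, at lower levels, in the intestine. It measured 148 CPM in NB reticulum and 155 CPM in NB omasum, whose intervals (146 to 151 and 152 to 157) were separate by a small margin. NB liver came next with 87.6 CPM (72.3 to 105), followed by NB rectum (22.4), NB cecum (17.9) and NB jejunum (16.4). The liver value in the strict gate was 118 CPM, whereas rectum, cecum and jejunum measured 2.05, 3.52 and 5.04 CPM. AD duodenum, jejunum and cecum had no *GJA1* UMI, and the 11.9 CPM of AD colon became 0 in the strict gate. In those intestinal libraries *GJA1* was therefore measured mostly in epithelial barcodes that also held leukocyte, fibroblast or endothelial RNA.

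Barcodes without *EPCAM* and *KRT14* showed which members other cells carried. In barcodes with *COL1A2* as the one lineage gene, *GJA1* measured 98.2 and 109.9 CPM in the forestomach libraries and 56.2 to 501 CPM in the 9 other libraries with at least 50 such barcodes (median 145). In *PECAM1* barcodes it measured 0 to 149 CPM over 11 libraries, with a median of 84.5. In *PTPRC* barcodes it stayed between 0.0359 and 3.20 CPM. *GJA1* was thus a gene of fibroblast and endothelial barcodes in these libraries as well as of squamous epithelium. *DSG3*, by comparison, reached at most 24.6 CPM in the *COL1A2* or *PECAM1* barcodes of the forestomach libraries, and *DSP* at most 22.1 CPM. *GJB6* was also measured in *PECAM1* barcodes, at 0 to 15.2 CPM (median 1.97, 181 UMIs) over 11 libraries outside the forestomach. In those of NB reticulum and NB omasum it measured 5.27 and 2.84 CPM, from 5 UMIs in both together.

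Within the forestomach, barcodes were sorted by 3 genes, each requiring at least 1 UMI: *DLK2*, used as a basal marker, *MKI67*, a gene of dividing cells, and *SPINK5*, a protease inhibitor of differentiated keratinocytes. NB reticulum gave 3460 *DLK2*, 2134 *MKI67* and 675 *SPINK5* barcodes, and NB omasum gave 5278, 2277 and 2202. *KRT4* and *COL17A1* followed these names in both libraries. Not all listed keratinocyte genes did, as given below for *KRT14* and *KRT10* along *SPINK5*. From *DLK2* to *SPINK5* barcodes, *KRT4*, a suprabasal keratin, went from 738 to 7249 CPM in NB reticulum and from 2436 to 22620 CPM in NB omasum. *COL17A1*, which anchors basal cells, went from 1655 to 493 and from 1621 to 391 CPM. The groups shared barcodes: 42.4% of the *SPINK5* barcodes of NB reticulum and 27.4% of those of NB omasum also had *MKI67*, and 18.8% and 21.5% also had *DLK2*. *SPINK5* barcodes were also deeper, with a median of 13734 and 12182 UMIs against 10255 and 8844 in *DLK2* barcodes.

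*SPINK5* barcodes carried more junction RNA than *DLK2* barcodes. In both libraries 7 of the 10 genes were at least 2-fold higher in *SPINK5* barcodes (*GJB2*, *GJB6*, *GJA1*, *DSG1*, *DSC2*, *DSP* and *PKP1*) and none was 2-fold lower. Over all genes with at least 10 UMIs, 6.31% in NB reticulum and 7.55% in NB omasum were 2-fold higher, and 11.3% and 12.3% were 2-fold lower. All 10 members had at least 10 UMIs, and their median log2 ratio of *SPINK5* over *DLK2* barcodes was 2.33 in NB reticulum and 2.22 in NB omasum, against -0.06 and -0.08 over all genes.

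**Figure D2:**
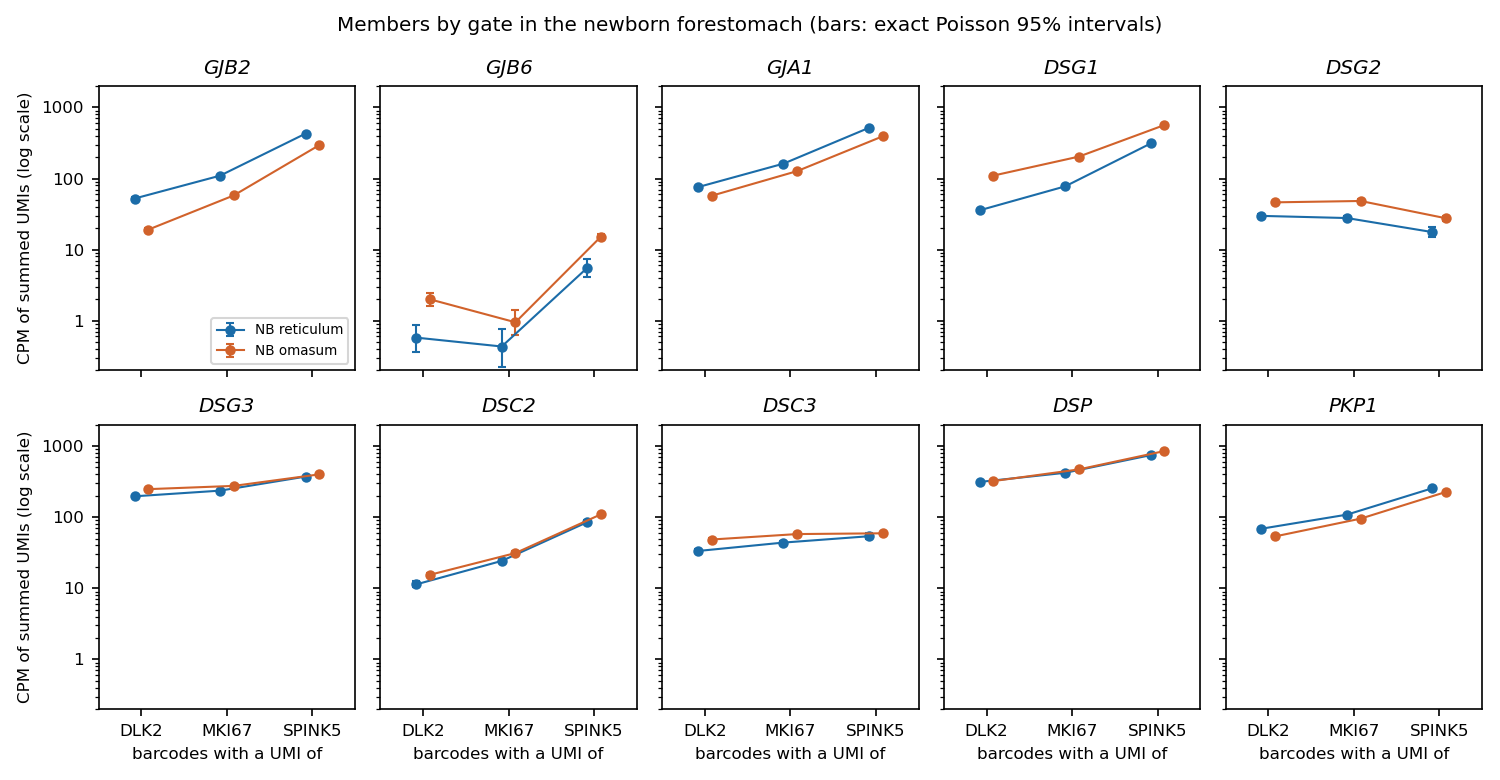
CPM (log axis) of the 10 genes in *DLK2*, *MKI67* and *SPINK5* barcodes of NB reticulum and NB omasum, with exact Poisson 95% intervals as bars. *GJB2*, *GJA1*, *DSG1* and *DSC2* climb from *DLK2* through *MKI67* to *SPINK5* barcodes in both libraries, while *DSG2* is lowest in *SPINK5* barcodes.

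All 3 connexins were highest in *SPINK5* barcodes. *GJB2* measured 52.3, 109.6 and 428 CPM in the *DLK2*, *MKI67* and *SPINK5* barcodes of NB reticulum and 19.1, 57.8 and 294 CPM in those of NB omasum. Its log2 ratio of *SPINK5* over *DLK2* barcodes was 3.03 (interval 2.95 to 3.11) in NB reticulum and 3.95 (3.85 to 4.05) in NB omasum. *GJA1* measured 75.7, 162 and 516 CPM in NB reticulum and 57.2, 127 and 392 CPM in NB omasum, and its ratio was nearly the same in both, 2.77 (2.70 to 2.84) and 2.78 (2.72 to 2.84). The beta connexin and the alpha connexin thus both had their highest level in the differentiated barcodes. *GJB6* measured 0.578, 0.434 and 5.54 CPM in NB reticulum and 2.00, 0.950 and 15.2 CPM in NB omasum, with log2 ratios of 3.26 (2.51 to 4.06) and 2.93 (2.61 to 3.26). Its *MKI67* level in NB reticulum rested on 12 UMIs and did not differ from its *DLK2* level (22 UMIs) beyond counting error (log2 ratio -0.41, interval -1.56 to 0.66).

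The desmosomal cadherins split by type. *DSG1*, the upper-layer desmoglein, measured 35.7, 77.6 and 311 CPM in NB reticulum and 109.9, 203 and 565 CPM in NB omasum, log2 ratios of 3.12 (3.03 to 3.22) and 2.36 (2.32 to 2.41). *DSG3*, the lower-layer desmoglein, was also higher in *SPINK5* barcodes, though below 2-fold, at 197, 236 and 373 CPM and 248, 276 and 400.2 CPM (log2 ratios 0.92 and 0.69). *DSG2* went the other way, with 29.8, 27.8 and 17.6 CPM in NB reticulum and 46.2, 48.3 and 27.6 CPM in NB omasum. Its log2 ratios were -0.76 (-1.01 to -0.52) and -0.75 (-0.87 to -0.62). It was the one member with a lower level in *SPINK5* than in *DLK2* barcodes, in both libraries.

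Of the desmocollins, *DSC2* measured 11.4, 24.3 and 85.1 CPM in NB reticulum and 15.5, 31.3 and 109.7 CPM in NB omasum, log2 ratios of 2.91 and 2.83. *DSC3* differed less, with 33.5, 43.9 and 54.0 CPM and 48.5, 57.9 and 59.3 CPM, log2 ratios of 0.69 (0.54 to 0.84) and 0.29 (0.20 to 0.38). *DSG2* and *DSC2*, the pair of simple epithelia, therefore had ratios of opposite sign within the squamous epithelium. In the plaque, *DSP* measured 313, 421 and 746 CPM in NB reticulum and 322, 469.9 and 852 CPM in NB omasum, and *PKP1* 68.8, 109 and 255 CPM and 53.7, 95.4 and 227 CPM. Their log2 ratios were 1.25 and 1.40 for *DSP* and 1.89 and 2.08 for *PKP1*.

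*MKI67* barcodes lay between the others for 8 of the 10 members in both libraries, all but *DSG2* and *GJB6*. For *DSC3* in NB omasum the *MKI67* and *SPINK5* intervals overlapped (55.1 to 60.8 and 56.4 to 62.4 CPM). With barcodes of more than 1 group left out, its log2 ratios over *DLK2* barcodes were 0.39 (*MKI67*) and 0.37 (*SPINK5*). In *MKI67* against *DLK2* barcodes, 4 members were at least 2-fold higher in NB reticulum (*GJB2* 1.07, *GJA1* 1.10, *DSG1* 1.12 and *DSC2* 1.10 on the log2 scale), against 2.64% of all genes, and none was 2-fold lower, against 3.56%. These 4 ratios lay just past 2-fold, and without the upper limit on genes per barcode the count was 1. The TMM factor of this comparison was 0.08 on the log2 scale, and subtracting it took *GJB2* below 2-fold. In NB omasum 3 were higher (*GJB2* 1.60, *GJA1* 1.15 and *DSC2* 1.02), against 4.6%, and *GJB6* was lower (-1.07, interval -1.76 to -0.44, from 26 and 99 UMIs), against 3.63%. With doublets left in, 1 was higher and 0 were lower. When barcodes of more than 1 of these groups were left out, the *GJB6* ratio was 2.12, with an interval (-0.78 to 5.02) that included no difference. The TMM factor of *MKI67* over *DLK2* barcodes in NB omasum was 0.12 on the log2 scale, and subtracting it took *DSC2* below 2-fold and *DSG2* (0.06) below 0.

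Between barcodes of 1 group alone, the ratios of all 10 members lay farther from 1 in both libraries. There, *GJB2* measured 32.0 CPM (*DLK2* alone) and 637 CPM (*SPINK5* alone) in NB reticulum, and 5.93 and 410.1 CPM in NB omasum. *DSG1* went from 23.0 to 469 CPM and from 84.7 to 737 CPM. *DSG2* went from 30.5 down to 11.1 CPM and from 43.9 down to 16.6 CPM, now more than 2-fold lower in both. *GJA1* had log2 ratios of 3.89 and 3.62 and *DSC2* of 3.99 and 3.87 in NB reticulum and NB omasum, and *PKP1* of 2.66 and 2.78. *DSG3* passed 2-fold in NB reticulum (1.31) and not in NB omasum (0.90). For *GJB6* they were 4.19 and 7.71, the latter from 3 UMIs in *DLK2* barcodes and with an interval of 6.15 to 10.00. Barcodes with both *DLK2* and *SPINK5* held intermediate levels, such as 227 and 119 CPM of *GJB2* and 144 and 266 CPM of *DSG1*.

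To follow the genes along *SPINK5* itself, forestomach epithelial barcodes were thinned to 3000 UMIs each and grouped by *SPINK5* UMIs of 0, 1, 2 to 4, and 5 or more. Thinning left out 699 and 715 shallower barcodes, and the 4 bins held 5383, 153, 125 and 104 barcodes in NB reticulum and 7257, 418, 321 and 784 in NB omasum. *KRT4* went from 1024 to 20593 CPM and from 2134 to 41692 CPM between the outer bins. *KRT5* went from 6474 to 1061 CPM and from 8080 to 2925 CPM. *KRT14* was higher in the last bin in NB reticulum (3582 to 5869 CPM) and lower in NB omasum (5349 to 3173 CPM). *KRT10*, listed as a differentiated marker, went from 38.7 to 631 CPM and from 31.7 to 42.1 CPM. The share of barcodes with *DLK2* went from 37.5% to 0% and from 48.9% to 2.42%.

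*GJB2* climbed over all 4 bins, at 64.0, 181, 507 and 984 CPM in NB reticulum and 15.1, 93.3, 214 and 535 CPM in NB omasum. It was seen in 12.7, 31.4, 64.8 and 79.8% of thinned barcodes in NB reticulum and in 3.87, 21.3, 44.2 and 70.3% in NB omasum. *GJA1* was seen in 16.9, 51.0, 74.4 and 88.5% and 13.3, 36.6, 65.7 and 76.3%. In the *SPINK5*-free bin the share of *GJB2* barcodes was larger in NB reticulum than in NB omasum, with intervals that did not overlap.

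**Figure D3:**
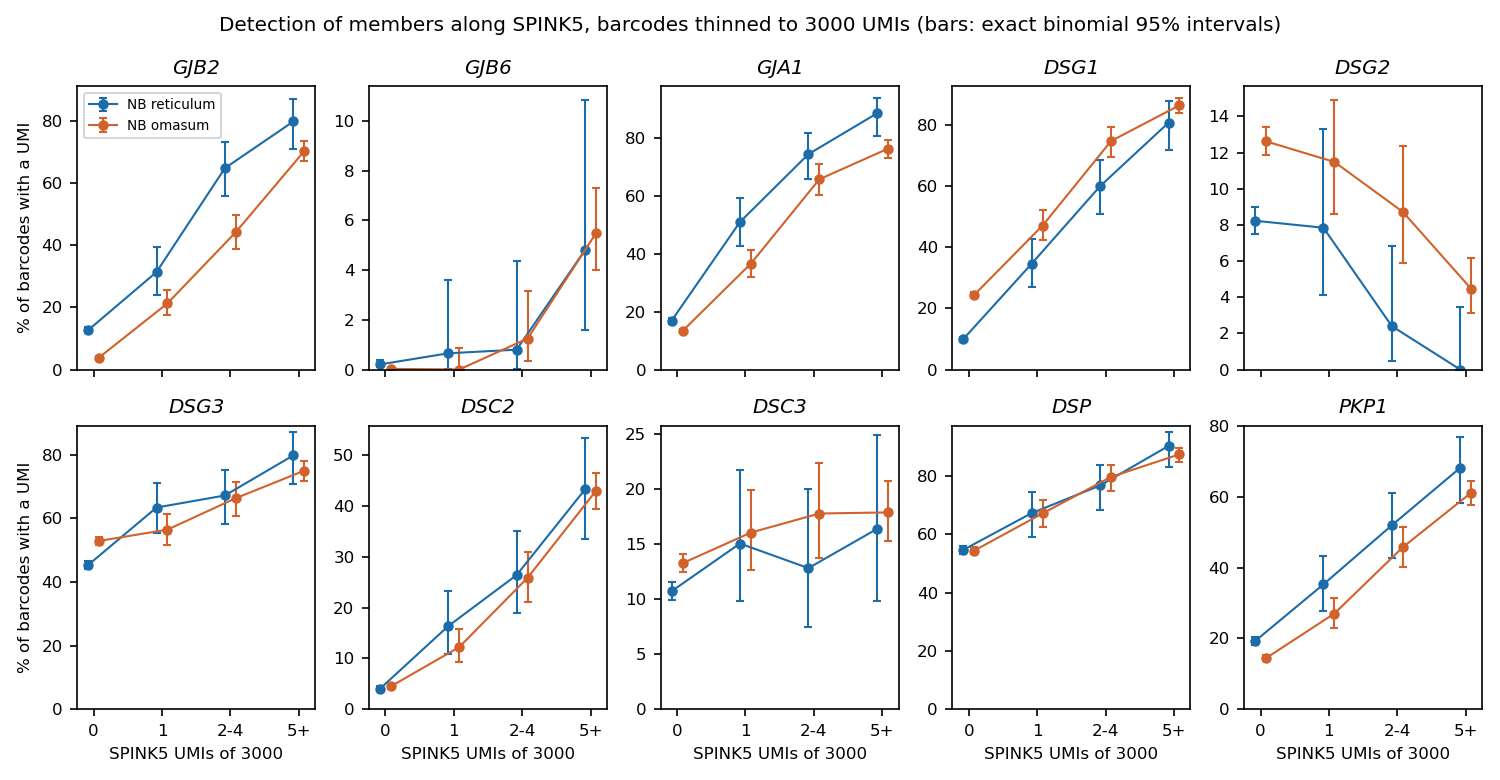
Percent of thinned epithelial barcodes with a UMI of each gene in bins of 0, 1, 2 to 4, and 5 or more *SPINK5* UMIs, for NB reticulum and NB omasum, with exact binomial 95% intervals as bars. *GJB2*, *GJA1*, *DSG1*, *DSC2*, *DSP* and *PKP1* climb with *SPINK5*, *DSC3* differs little between bins and *DSG2* declines.

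*DSG1* showed the same climb, seen in 9.96, 34.6, 60 and 80.8% of barcodes in NB reticulum and 24.4, 47.1, 74.8 and 86.5% in NB omasum. *DSC2* was seen in 3.98, 16.3, 26.4 and 43.3% and 4.46, 12.2, 25.9 and 43.0%. *DSG2* was seen in 8.23, 7.84, 2.40 and 0% of barcodes in NB reticulum and 12.6, 11.5, 8.72 and 4.46% in NB omasum, and with no barcode among 104 in the last reticulum bin, the exact binomial 95% interval still allowed a share of up to 3.48%. *DSC3* differed little, from 10.7% to 16.3% between the outer bins in NB reticulum and from 13.2% to 17.9% in NB omasum. *DSP* was already seen in 54.7% and 54.4% of *SPINK5*-free barcodes and reached 90.4% and 87.5%, and *PKP1* went from 19.2% to 68.3% and from 14.4% to 61.2%.

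The make-up of the cadherins shifted accordingly. In *SPINK5*-free barcodes of NB reticulum, *DSG3*, *DSG1* and *DSG2* gave 75.4%, 14.5% and 10.1% of the UMIs of these 3 desmogleins, and in barcodes with 5 or more *SPINK5* UMIs they gave 47.2%, 52.8% and 0%. In NB omasum the shares were 62.2%, 27.0% and 10.8% and then 35.3%, 63.7% and 0.985%. The *DSG1* share was thus larger in the last bin than in the first in both libraries. These are shares of UMIs and were not corrected for transcript length. Of the UMIs of *DSC2* and *DSC3*, *DSC2* held 26.9% and then 77.4% in NB reticulum, and 24.5% and then 76.1% in NB omasum. Of the connexin UMIs, *GJA1* gave 58.9% in *DLK2* and 54.4% in *SPINK5* barcodes of NB reticulum, and 73.1% and 55.9% in those of NB omasum.

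**Figure D4:**
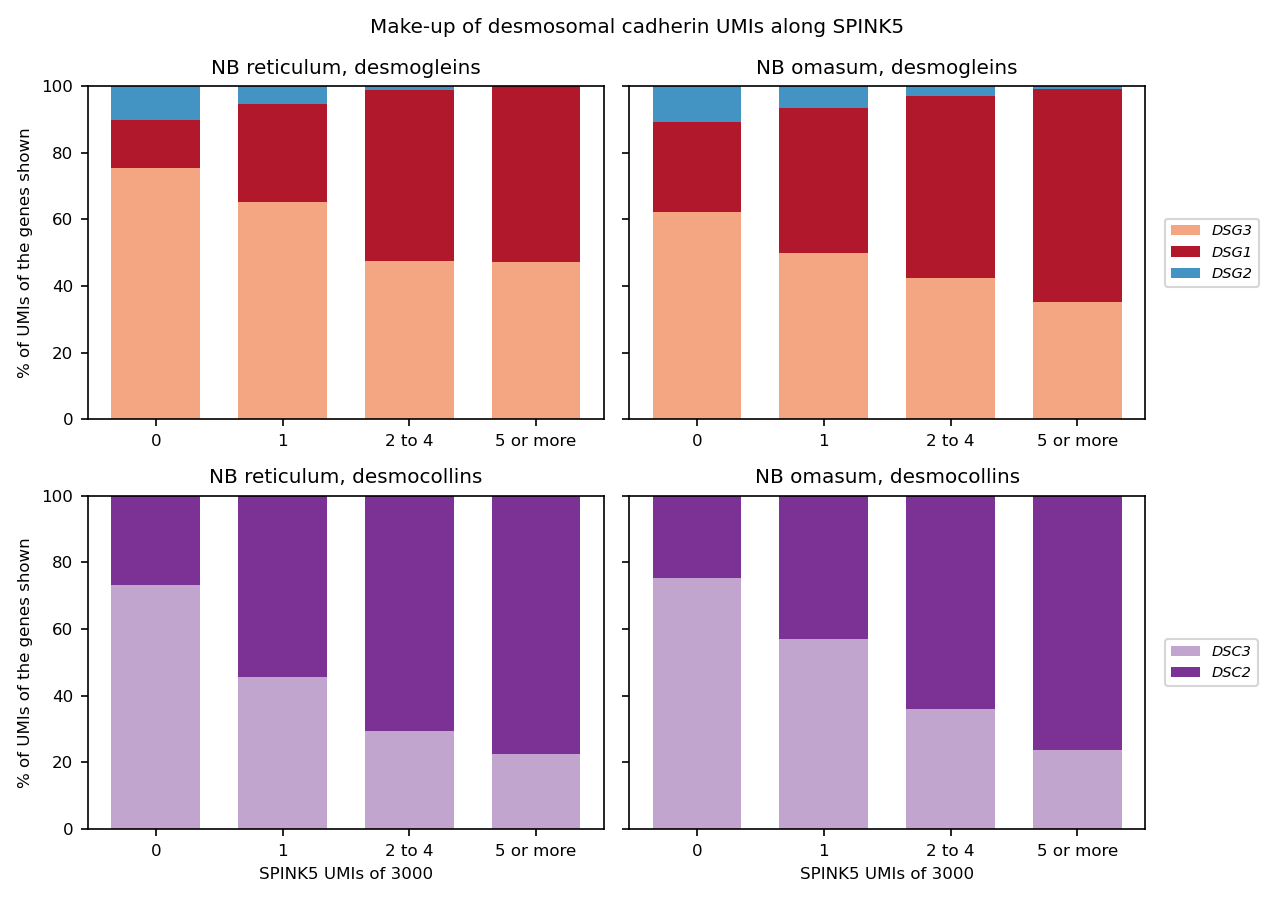
Percent of desmoglein UMIs (*DSG3*, *DSG1*, *DSG2*) and of *DSC3* and *DSC2* UMIs given by each gene in thinned barcodes, by bin of *SPINK5* UMIs, for NB reticulum and NB omasum. The *DSG1* and *DSC2* parts widen from bin 0 to bin 5 or more in both libraries.

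*GJB2* and *GJA1* were often seen in the same *SPINK5* barcodes. In thinned *SPINK5* barcodes, *GJB2* and *GJA1* were both seen in 238 of 641 barcodes (37.1%) in NB reticulum, where the product of their shares is 28.2%. In NB omasum it was 623 of 2062 (30.2%), with a product of 22.4%. *DSG1* and *DSG3* were seen together in 32.0% and 44.9%, against products of 28.3% and 42.6%, a smaller excess. In thinned *DLK2* barcodes, *GJB2* and *GJA1* were both seen in 2.81% and 1.37%, against products of 1.12% and 0.338%. *GJB2* and *GJB6* were both seen in 0.936% and 2.13% of *SPINK5* barcodes, against products of 0.596% and 0.948%. The *SPINK5* barcodes spanned a range of *SPINK5* levels, and whether that range set the excess was not tested.

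*GJB6* UMIs lay in few barcodes. Its 414 UMIs in NB omasum lay in 158 epithelial barcodes, 1 of which held 43, and the 10 richest held 41.1% of them. For the other 9 members the 10 richest barcodes of NB omasum held 0.888% to 3.96% of UMIs. Those members had 3656 to 43318 UMIs in 1962 to 7890 barcodes, so these shares are not on a like basis. Of the *GJB6* barcodes of NB omasum, 90.5% also had *SPINK5*, and in thinned *SPINK5* barcodes 44 of 47 *GJB6* barcodes also had *GJB2*. In NB reticulum its 86 UMIs lay in 65 barcodes, 50.8% of them with *SPINK5*.

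The forestomach libraries differed from each other in *DSG1*. Over epithelial barcodes it was 1.65 higher on the log2 scale in NB omasum than in NB reticulum (interval 1.61 to 1.70), and *GJB6* was 1.82 higher (1.48 to 2.17). These 2 of 10 members were at least 2-fold higher in omasum, against 4.17% of all genes, and none was 2-fold lower, against 8.08%. The other log2 ratios ran from -0.22 (*GJB2*) to 0.85 (*DSC2*), the median over members was 0.41 and that over all genes -0.08. The TMM factor of omasum over reticulum was -0.11 on the log2 scale, and subtracting it turned no ratio. *SPINK5* barcodes made up 10.4% of epithelial barcodes in NB reticulum and 23.2% in NB omasum, so the libraries were also compared within each group of barcodes.

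Within groups, *GJB2* in *DLK2* barcodes was the 1 value at least 2-fold lower in omasum, and the omasum values of *GJA1* and *PKP1* lay below those of reticulum by less than 2-fold. Among *DLK2* barcodes *GJB2* measured 19.1 CPM in NB omasum against 52.3 CPM in NB reticulum, a log2 ratio of -1.45, against 7.56% of genes 2-fold lower. The *GJB2* ratios were -0.92 in *MKI67* and -0.54 in *SPINK5* barcodes. *GJA1* had ratios of -0.40, -0.35 and -0.40, and *PKP1* -0.36, -0.19 and -0.17, in *DLK2*, *MKI67* and *SPINK5* barcodes. *DSG1* was higher in omasum in all 3 groups, by 1.62, 1.39 and 0.86, as was *GJB6*, by 1.79, 1.13 and 1.46. Of the 99 *GJB6* UMIs in *DLK2* barcodes of NB omasum, 96 lay in barcodes that also had *SPINK5*. In barcodes of *DLK2* alone the order turned, with 0.0932 CPM (interval 0.0192 to 0.272, 3 UMIs) in NB omasum and 0.606 CPM (0.331 to 1.02, 14 UMIs) in NB reticulum. The *MKI67* ratio of *GJB6* rested on 26 and 12 UMIs, and in barcodes of *MKI67* alone the intervals overlapped (3 and 5 UMIs). Over all barcodes of a group, *DSG1* and *GJB6* were at least 2-fold higher in *DLK2* and *MKI67* barcodes, against 4.1% and 5.37% of genes, and *GJB6* alone in *SPINK5* barcodes, against 5.42%. No member was 2-fold lower in *MKI67* or *SPINK5* barcodes, against 7.2% and 7.14% of genes. The comparison within groups was added after the values over all epithelial barcodes were seen. *KRT4* was also higher in omasum in each group, for example 2436 against 738 CPM in *DLK2* barcodes, and its part in these ratios was not tested.

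Of 31 further connexin, pannexin and desmosome genes, 29 were in the files. Of the 19 with at least 10 UMIs over the epithelial barcodes of the 15 libraries, 6 were at least 2-fold higher in both forestomach libraries than in every other (*GJB5*, *DSC1*, *JUP*, *PKP3*, *PERP* and *EVPL*), against the 2.9% of all genes given above. Of 18 such genes in the strict gate, 6 were (*EVPL* no longer, and *GJC1* instead), against 3.58%. *JUP* measured 359 and 526 CPM, against at most 84.6 CPM elsewhere (152 in the strict gate of AD colon), and *PERP*, a desmosomal membrane protein, 1228 and 1831 CPM against at most 361. *GJB1* (connexin 32), a connexin of liver, was the 1 gene of this list at least 2-fold lower in both than in every other library, with 0.0151 and 0.0997 CPM (1 and 9 UMIs) against 109 CPM in NB liver. Its lowest other value, 1.92 CPM in NB salivary gland, rested on 1 UMI, and its interval (0.0485 to 10.7) overlapped that of NB omasum (0.0456 to 0.189).

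In *SPINK5* against *DLK2* barcodes, 14 of these genes had at least 10 UMIs in each forestomach library, 3 were at least 2-fold higher in NB reticulum and 5 in NB omasum, against 6.31% and 7.55% of all genes, and none was 2-fold lower, against 11.3% and 12.3%. *DSC1*, the upper-layer desmocollin, had log2 ratios of 3.40 in NB reticulum and 4.00 in NB omasum, and *JUP* of 1.44 and 1.48. The *DSC1* ratios rested on low counts, with 0.438 and 0.543 CPM over epithelial barcodes and 78 UMIs in both libraries together. *DSC1* was seen in 0.145% and 0.0758% of *DLK2* barcodes and in 1.63% and 1.45% of *SPINK5* barcodes, without thinning. *GJA4* (2.70) was higher in NB reticulum, and *PKP2* (1.16), *PKP3* (1.01) and *PPL* (1.44), which encodes periplakin, in NB omasum. *GJA4* was seen in 1.48% of the *SPINK5* barcodes of NB reticulum. Its level in all epithelial barcodes of that library was 2.39 CPM, and 0.669 CPM in the strict gate, beside 162 CPM in *PECAM1* barcodes. *GJB5*, a beta connexin, was nearly level (-0.19 and -0.06), unlike *GJB2*. *PKP4* had ratios of -0.52 and -0.52. Beside the 7 members, *DSC1* and *JUP* were thus the genes of this list at least 2-fold higher in *SPINK5* barcodes of both libraries, whereas *DSG2*, *DSG3*, *DSC3* and *PKP4* were not.

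Duodenum, jejunum, cecum and colon each had an NB and an AD library. *DSG2*, *DSC2* and *DSP* were lower in NB than in AD epithelial barcodes of cecum, by at least 2-fold each, and *DSG2* and *DSP* in jejunum and *DSC2* and *DSP* in colon. In the duodenum the direction was the opposite. In each tissue 5 of the 10 members reached 10 UMIs over both libraries (*GJA1*, *DSG2*, *DSC2* and *DSP*, with *PKP1* in colon and *GJB2* in the others), and a member at 0 in one library could reach this only through the other. The remaining members had too few UMIs to compare, and *DSG3* and *DSC3* were at 0 throughout.

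**Figure D5:**
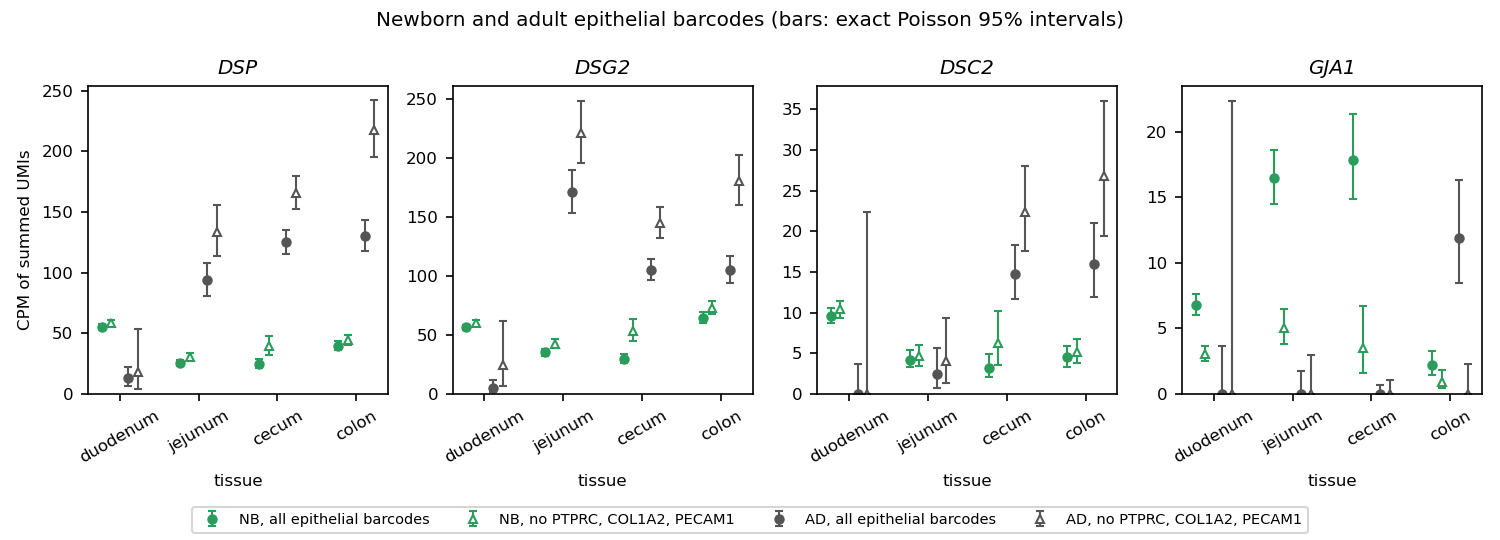
CPM of *DSP*, *DSG2*, *DSC2* and *GJA1* in epithelial barcodes of NB and AD duodenum, jejunum, cecum and colon. Filled circles are all epithelial barcodes and open triangles those with no UMI of *PTPRC*, *COL1A2* or *PECAM1*, with exact Poisson 95% intervals as bars. *DSP* is higher in AD than in NB jejunum, cecum and colon and lower in AD duodenum.

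In the cecum, *DSP* measured 24.9 CPM (NB) and 125 CPM (AD), a log2 ratio of -2.33 (-2.58 to -2.08), *DSG2* 29.8 and 105 CPM (-1.82) and *DSC2* 3.22 and 14.7 CPM (-2.19). These were 3 members lower, against 14.3% of genes. Higher in NB were 2 members, *GJA1* and *GJB2*, against 18.3% of genes, and both were at 0 in AD cecum. With the AD count set at 3 UMIs their log2 ratios were at least 4.98 and 3.70. *COL1A2* was seen in 34.4% of the NB cecum barcodes and 0% of the AD ones. In the strict gate NB cecum had 3.52 CPM of *GJA1* and 1.56 of *GJB2*, and neither counted as higher.

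In the jejunum, *DSG2* measured 35.2 CPM (NB) and 171 CPM (AD), a log2 ratio of -2.28 (-2.48 to -2.09), and *DSP* 25.3 and 93.6 CPM (-1.89, -2.14 to -1.63). Against these 2 members, 24.8% of genes were 2-fold lower in NB. *GJA1* alone was higher, by a log2 ratio of at least 3.51 (254 UMIs against 0), against 12.5% of genes. In the colon, *DSP* (-1.72), *DSC2* (-1.82), *GJA1* (-2.43) and *PKP1* (-5.15, from 1 and 10 UMIs) were at least 2-fold lower in NB, against 26.5% of genes, *DSG2* was less than 2-fold lower (-0.70), and no member was higher, against 10.9%. *GJA1* of AD colon had no UMI in the strict gate. There *DSG2* was more than 2-fold lower in NB colon (-1.30, interval -1.50 to -1.10), as it was with at least 2 gating UMIs (-1.18). The median over all genes was -0.02, -0.33, -0.12 and -0.36 in duodenum, jejunum, cecum and colon. Under TMM scaling, which corrects for a few dominant genes, the log2 factor of the NB over the AD profile was -0.58, -0.48, -0.15 and -0.47, and subtracting it reversed the direction of no member. It brought the members higher in NB jejunum to 3 (*GJA1*, *DSC2* and *GJB2*), beside 2 lower.

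The duodenum ratios rested on 185 AD barcodes that went against the name epithelial. *DSG2* measured 56.6 CPM (NB) and 4.91 CPM (AD, 5 UMIs), a log2 ratio of 3.53 (2.30 to 5.15), and *DSP* 55.1 and 12.8 CPM (2.11, 1.33 to 3.02). *DSC2* and *GJA1* were at 0 in AD duodenum, where the interval reached 3.62 CPM, against 9.59 and 6.77 CPM in NB. With the AD count set at 3 UMIs their log2 ratios were 1.70 and 1.20. These 4 members were higher in NB, against 18.7% of genes, and none was lower, against 28.9%. In the strict gate AD duodenum held 4 UMIs of *DSG2* and 3 of *DSP*, and 2 members counted as higher. The log2 ratios there were 1.31 (-0.04 to 3.19) and 1.68 (0.13 to 3.96), and the *DSG2* interval included no difference. With at least 2 UMIs of *EPCAM* or *KRT14* required, the ratios were 1.07 (-0.15 to 2.70) for *DSG2* and -0.36 (-1.13 to 0.56) for *DSP*. Both intervals included no difference.

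The 4 tissues were also taken as NB and AD pairs, with tissue as a block in edgeR's quasi-likelihood test and 3 residual degrees of freedom. *GJA1*, *DSG2*, *DSC2* and *DSP* had enough UMIs for this fit, and none of these 4 passed an adjusted p of 0.05 or an unadjusted p of 0.05, which 3287 genes passed, while 0.0978% of 11242 genes were higher and 0.0356% lower in NB by the adjusted p. The log2 ratio of *DSP* was -0.83 (SE 0.87, edgeR adjusted p = 0.55). That of *DSG2* was -0.37 (SE 1.06, edgeR adjusted p = 0.84) and that of *DSC2* 0.01 (SE 1.16, edgeR adjusted p = 0.99). Without duodenum, *DSP* had a ratio of -1.62 (SE 0.25, edgeR adjusted p = 0.09) and *DSG2* of -1.26 (SE 0.38, edgeR adjusted p = 0.15), and both had an unadjusted p under 0.05, as did 3082 of 11400 genes. No gene passed the adjusted p in that smaller fit. Without jejunum or without cecum the *DSP* ratios were -0.54 and -0.32, and 0 members passed an unadjusted edgeR p of 0.05. *GJA1* had an edgeR adjusted p of 0.3 over the 4 tissues and of 0.18 without colon. Its unadjusted p without colon was under 0.05, as was that of 2170 of 11312 genes. Colon was the only tissue with *GJA1* lower in NB, and the other AD libraries had no *GJA1* UMI. Leaving colon out after the values were seen thus cannot test *GJA1*, which did not enter the fit in the strict gate. The 4 AD libraries were from 1 cow, so the spread in this fit is between tissues and not between animals. The fit was added after the values were seen.

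Tuft cells are a chemosensory type of simple epithelium. Epithelial barcodes with at least 2 of the 5 tuft markers in the files numbered 84 in AD jejunum, 47 in AD cecum and 37 in AD colon, against 5, 5 and 10 in the NB libraries of these tissues. *DSG2* measured 465 CPM in them against 83.0 CPM in the other epithelial barcodes of AD jejunum, 243 against 99.8 CPM in cecum and 274 against 95.1 CPM in colon. *DSP* measured 178 against 68.0, 441 against 113 and 389 against 115 CPM. Both were higher in tuft barcodes in the 3 AD tissues. In AD jejunum so were *JUP* (125 against 49.9 CPM) and *PERP* (166 against 48.1 CPM), whereas *PKP4* (4.15 CPM, 2 UMIs, against 7.49) was not. Epithelial barcodes of AD jejunum also held leukocyte RNA, as given above, and its part in these differences was not tested. In NB abomasum, with 43 tuft barcodes, *DSG2* measured 71.5 against 18.0 CPM, and *DSP* 28.6 CPM (8 UMIs, interval 12.4 to 56.4) against 34.5 CPM, which did not differ beyond counting error. Without these barcodes the jejunum log2 ratios of NB over AD were -1.23 for *DSG2* and -1.42 for *DSP*, and both were still at least 2-fold lower in NB. This split was added after the values were seen.

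Over the 15 libraries, the genes most like each member were taken by Pearson's r of log2(CPM + 1) in epithelial barcodes. For *GJB2* they were *KRT17* (r = 0.955), *S100A7* (0.947) and *KRT5* (0.936), for *PKP1* *KRT5* (0.964), *BPIFA2A* (0.962) and *KRT15* (0.958), and for *DSG1* *A2ML1* (0.999) and *KRT78* (0.999) after 1 unnamed gene. *DSG3* and *DSC3* were most like *KRT6A*, *SERPINB10* and each other. *GJB6* was most like 2 unnamed genes and *BNIPL* (0.935), *DSP* most like *IGFBP2* (0.952), *ENDOU* (0.907) and *PIK3R2* (0.905), and *DSC2* most like *PERP* (0.952), *SERPINB8* (0.886) and *PARD3* (0.886). *GJA1* was most like *SEPTIN10* (0.945), *ADIRF* (0.927) and *NRP1* (0.924). *DSG2* stood apart, with *MAP7* (0.940), *PLA2G4A* (0.920) and *SMAD1* (0.901), and its r with the other 9 members lay between -0.14 and 0.44, against 0.46 to 1.00 among those 9. These correlations over 15 libraries are descriptions that rest largely on the step between the forestomach and the other libraries, which also differ in depth and in admixed RNA.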

How the data were processed

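The authors deposited 10x Genomics 3′ UMI counts per gene and barcode for each library, made with Cell Ranger 3.1.0 per the labels and aligned to ARS-UCD1.2. These counts were used as deposited, with total UMIs of 17707625 to 129458578 per library. Barcodes with 500 to 4000 genes, fewer than 50000 UMIs and less than 40% of UMIs from 13 mitochondrial genes were retained. The highest doublet scores, by an implementation of the Scrublet method with 2 simulated doublets per barcode and 30 principal components, were removed at 0.8% per 1000 barcodes. The doublet caller of the study and its manual removal of clusters were not repeated.

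UMIs were summed per library and group of barcodes. A gene was counted as higher or lower at 2-fold or more with at least 10 UMIs over both groups. A count of 0 was set at 3 counts in these calls, and not in the comparison of the forestomach libraries with every other library. A ratio called at least a value is the ratio at that setting, and the exact 95% interval of a 0 reaches above 3 counts. Poisson and Clopper-Pearson intervals were at the 95% level. With 1 library per tissue and stage no test was run within a tissue. NB and AD were also compared over 4 tissues with edgeR's quasi-likelihood test (tissue as a block, TMM scaling, genes kept by edgeR's expression filter, Benjamini-Hochberg adjustment). TMM factors came from edgeR 4.0.16 (R 4.3.3), and the rest used Python 3.11.15, NumPy 2.4.6, SciPy 1.17.1, pandas 2.3.3, scikit-learn 1.9.0 and Matplotlib 3.10.9. The calls were tested on simulated data. The members, the other gene lists and the markers were chosen with earlier results of these data known. Genes named beside them were the 31 listed junction genes, the marker and gating genes, and for each member the 3 genes with the highest Pearson r of log2(CPM + 1) over 15 libraries among genes of at least 50 CPM in 1 library. Alternatives varied doublet removal, the gates, the filters and the scaling.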

Additional observations from a re-analysis of the deposited data

Results flagged for a closer look

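The log2 ratios of NB over AD epithelial barcodes had opposite signs between tissues for 4 genes, and these differences between tissues were not tested, with 1 library per tissue and stage. *GJA1* was higher in NB duodenum, jejunum and cecum and lower in NB colon (-2.43). The ratios in duodenum, jejunum and cecum were 1.20, 3.51 and 4.98, with the AD counts of 0 set at 3. In the strict gate, barcodes with no UMI of *PTPRC*, *COL1A2* or *PECAM1*, the opposite sign of *GJA1* was lost: AD colon had 0 UMIs, and NB colon and NB cecum had 9 and 9, too few to count. *DSG2* was higher in NB duodenum (3.53) and lower in NB jejunum (-2.28) and cecum (-1.82). *DSC2* was higher in NB duodenum, by 1.70 with the AD count of 0 set at 3, and lower in NB cecum (-2.19) and colon (-1.82). *DSP* was higher in NB duodenum (2.11) and lower in NB jejunum (-1.89), cecum (-2.33) and colon (-1.72). Beside the duodenum values stand the *PTPRC* share of 81.1% in the 185 AD duodenum barcodes and their *EPCAM* level of 238 CPM. Beside the *GJA1* values stand the *COL1A2* shares of 12.5% in NB jejunum and 34.4% in NB cecum barcodes. The *DSG2* and *DSP* ratios in the strict gate of duodenum were 1.31 (-0.04 to 3.19) and 1.68 (0.13 to 3.96).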

How the results depend on the processing

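The 18 counts of members at least 2-fold apart were taken again under up to 13 other settings. Of 166 such counts, 149 stayed within 1.5 times the reported one, among them every count of members higher in *SPINK5* than in *DLK2* barcodes. For members lower in *SPINK5* barcodes, the count was 1 instead of 0 with barcodes of 1 group alone in NB reticulum and in NB omasum, and 1 in NB omasum with at least 2 UMIs of the gating gene. For *MKI67* against *DLK2* barcodes, 1 member was higher in NB reticulum without the upper limit on genes and 1 in NB omasum with doublets left in. There, 0 members were lower with doublets left in, with at least 2 UMIs required, without the gene limit and with barcodes of 1 group alone, and the *GJB6* log2 ratio turned to 1.67 with at least 2 UMIs and to 2.12 with 1 group alone, where its interval included 0. For NB omasum against NB reticulum, 1 member was lower among *DLK2* barcodes and 1 higher among *SPINK5* barcodes, both settings chosen after seeing the data. In NB against AD duodenum, 2 members were higher without *PTPRC*, *COL1A2* or *PECAM1* UMIs and 1 with at least 2 gating UMIs. With at least 2 gating UMIs the *DSP* ratio turned to -0.36, and its interval (-1.13 to 0.56) included 0. In jejunum 2 were higher without the gene limit and 3 under TMM scaling, and in cecum 0 without *PTPRC*, *COL1A2* or *PECAM1* UMIs and 1 with at least 2 gating UMIs. The cause of these moves was not tested. Of 1509 values of single members, 1101 stayed inside their counting interval, 405 left it without turning a 2-fold difference, and the 3 given above turned one. Ratios under 2-fold also changed sign, such as those of *GJA1* and *PKP1* in NB omasum over NB reticulum within each group. The labels give no replicate numbers that pair libraries. In the paired fit over tissues, chosen after seeing the data, 0 members passed edgeR's adjusted p of 0.05 with tissue as a block, in the strict gate, or without the block, where 1060 of 11242 genes were higher and 1057 lower. Without any 1 tissue no gene at all passed, so those fits say nothing about the members. Its log2 ratio of *DSC2* changed sign, to -0.75 in the strict gate, -0.36 without the block, -0.89 without duodenum and -0.43 without jejunum, and that of *DSG2* to 0.30 without jejunum and 0.19 without cecum. The *GJB6* levels in epithelial barcodes outside the forestomach rest on 36 UMIs over 13 libraries.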

Other observations

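*GJB2* was also measured in leukocyte barcodes. Among *PTPRC* barcodes without *EPCAM* or *KRT14*, it reached 17.9 CPM in NB duodenum. After these values were seen, the *PTPRC* barcodes were split by *CD68*, a macrophage gene, and *CD3E*, a T cell gene. In barcodes with *CD68* and no *CD3E*, *GJB2* measured 22.5 CPM (51 UMIs) in NB duodenum, 22.3 CPM (74) in NB cecum, 29.7 CPM (40) in NB rectum and 9.19 CPM (86) in NB jejunum. In barcodes with *CD3E* and no *CD68* it measured 0.398 CPM in NB cecum and 0.451 CPM in NB rectum. NB duodenum and NB jejunum had 0 UMIs in 30 and 90 such barcodes, whose intervals reached 29.1 and 10.2 CPM and so overlapped those of the *CD68* barcodes. In NB liver the values were 5.36 and 0.648 CPM. In AD jejunum they were 2.99 CPM and 0.747 CPM, and in AD duodenum 8.18 and 0.388. In NB cecum, NB rectum, NB liver, AD jejunum and AD duodenum, the *CD68* value was higher with intervals that did not overlap. The same held in NB colon (9.93 and 0.698 CPM). In NB ileum, NB abomasum, NB salivary gland, AD cecum and AD colon the intervals overlapped. There the *CD68* barcodes held 5 *GJB2* UMIs in NB ileum and 1 in each of the others. All these *GJB2* values were below the 110.0 CPM of the epithelial barcodes of NB reticulum.

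*GJB6* reached 15.2 CPM in the *PECAM1* barcodes of NB abomasum, above its level in the epithelial barcodes of NB omasum (4.59 CPM).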
